A study of Mus musculus with 157 samples.

Results

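The comparison described here set mouse B cells (labelled B_cell) against common lymphoid progenitors (CLP), in an atlas of RNA levels and of N6-methyladenosine (m6A), a methyl mark on messenger RNA. Its members were 8 of the 157 samples of the series: for each of B_cell and CLP, 2 libraries of total RNA (input) and 2 of RNA pulled down by an antibody against m6A (IP). All 8 were wild type and untreated. The sources used here do not give the animals' age or strain, the tissue or the sorting gates. They also do not say that replicates were separate animals, and the p-values below cover the spread between libraries, which may be only technical. The other cell types of the atlas, 16 in all with 2 input and 2 IP libraries each, entered the fits to estimate that spread, and the input libraries of CD4 and CD8 T cells were used as a second lymphoid reference.

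The CLP is a bone marrow progenitor that gives rise to B, T and natural killer cells and to some dendritic cells. Commitment to the B lineage runs through the transcription factors E2A (Tcf3), Ebf1 and Pax5, then through a pre-B cell receptor made of the heavy chain with the surrogate light chains Vpreb and Igll1, and ends in a cell whose surface immunoglobulin signals through Cd79a and Cd79b. m6A is written by a complex around Mettl3 and Mettl14, removed by Fto and Alkbh5, and bound by YTH domain proteins.

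Input depth was about 8269000 and 8486000 recovered reads in the B_cell libraries and 9246000 and 12370000 in the CLP libraries. IP depth was about 10890000 and 12370000 counts in B_cell and 15880000 and 12960000 in CLP. Across genes, log values of the replicate pairs correlated at 0.931 (B_cell input), 0.958 (CLP input), 0.959 (B_cell IP) and 0.939 (CLP IP). Of the 16 input pairs only Monocyte (0.905) was below B_cell, and the spread in the fits was pooled over all 16 types. Of the 4566 genes called different in the input, 371 differed by over 4-fold between the B_cell libraries and 218 between the CLP libraries.

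The labels were checked against marker lists. All 10 mature B cell markers were higher in B_cell, and their summed value was 662100 and 841200 there against 4051 and 3447 in CLP. In CLP, Flt3, the cytokine receptor of early progenitors, stood at 1231 and 675, the second highest mean of the 16 cell types, and Ly6d stood at 64820 and 85470, also second after B_cell. Dntt, which adds bases at V(D)J joints, was at 4177 and 5744 in CLP, below MPP and LMPP. Kit, another marker of the progenitor, was low at 27.6 and 43.1, rank 13 of 16. Rag1 was at 32.8 and 30.5, second to B_cell. Of the 10 markers listed for the common lymphoid progenitor, 3 were higher in B_cell, 4 lower and 3 not called. Their summed value was larger in B_cell (224200 and 464900) than in CLP (74110 and 97110). Most of each sum was Ly6d, whose difference was not called, so the sum says little about the other genes. By its counts of higher and lower genes, the list did not set CLP apart from B_cell.

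The CLP libraries also carried genes of other cells, and these stand beside every result below in which a gene was lower in B_cell. Of 10 mast cell and basophil genes, 7 were lower in B_cell, with a summed value of 383900 and 93840 in CLP against 579.3 and 1357 in B_cell. Mcpt8, Cpa3 and Fcer1a, genes of basophils or mast cells, had their highest mean of all 16 types in CLP. The list was not particular to CLP. Its mean sum was 335700 in Monocyte, which lay between the CLP libraries, 43020 in GMP and 27920 in LMPP. The mast cell proteases Tpsb2 and Cma1 were at or near 0, with 1.31 and 0 and with 2.62 and 0 in CLP. The monocyte and macrophage list summed to 308400 and 100500 in CLP and to 5399 and 6078 in B_cell. In it 10 of 14 genes were lower in B_cell, while C1qa was at 2.62 and 1.79 in CLP. The mean sum of this list was 14780000 in Monocyte and 75780 in LMPP. The dendritic cell list summed to 51560 and 45410 in CLP and to 9626 and 14560 in B_cell, with 9 of 12 genes lower. Siglech, a receptor of plasmacytoid dendritic cells, and Cd209a had their highest mean of the 16 types in CLP. CLP replicate 1 exceeded replicate 2 by over 3-fold for the basophil, monocyte and neutrophil lists. Without CLP replicate 1, 7 basophil, 9 monocyte and 8 dendritic cell genes were lower in B_cell, and without CLP replicate 2, 7, 10 and 9 were. In bulk RNA, fewer cells of a type and less RNA per cell cannot be told apart, and the part of these genes in the other differences was not tested.

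**Figure D1:**
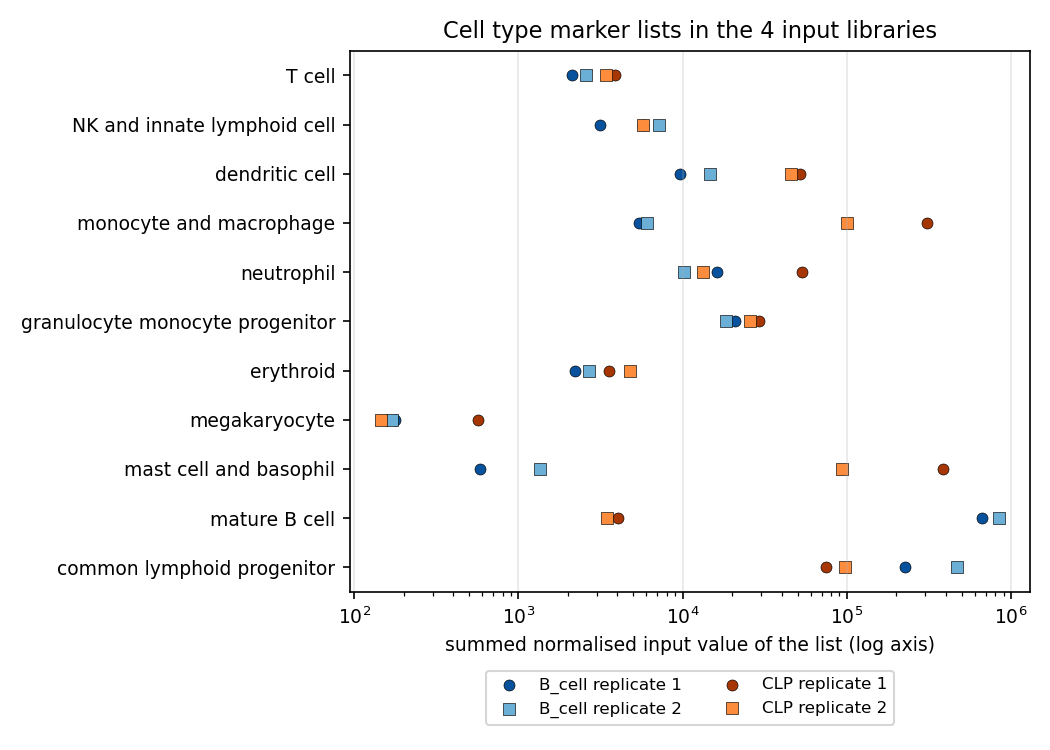
Summed normalised input values of 11 marker lists (horizontal log axis), 1 point per library, blue shades for B_cell and orange shades for CLP, circles for replicate 1 and squares for replicate 2. The mature B cell list is at 662100 and 841200 in B_cell and at 4051 and 3447 in CLP, and the mast cell and basophil list is at 383900 and 93840 in CLP.

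The B_cell input libraries also differed from each other. Ighm, the mu heavy chain constant region, was at 649860 in replicate 1 and 31185 in replicate 2, a 20.8-fold gap, and Ms4a1 was 7.59-fold higher in replicate 1. Vpreb1 and Igll1 went the other way, with 5481 and 6487 in replicate 1 and 17130 and 17404 in replicate 2. The IP libraries did not show this pattern for Ighm (55507 and 97680 counts) or Ms4a1 (9235 and 17088 counts). Other B lineage genes split differently between the B_cell input libraries. The ratio of replicate 1 to replicate 2 was 0.662 for Cd79a and 0.695 for Cd79b, but 3.82 for Rag2 and 3.45 for Cd24a. Wide gaps also lay in genes of other lists, such as Slc2a1 (24.5) and Tsc22d3 (19.1).

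The promoter letters of 3 genes are shown because their RNAs mark the 2 sides of the comparison and their upstream sequence holds a motif of a factor known for that lineage. They are the 250 bases before a transcript start in RefSeq (GRCm38.p6), 5′ to 3′ in the direction of the gene, with matches in capitals. Cd79a lies at chr7:24897247-24897496 (plus strand), Vpreb3 at chr10:75948050-75948299 (plus strand) and Ms4a2, the beta chain of the IgE receptor, at chr19:11623720-11623969 (minus strand). The start used for Vpreb3 lies inside the span listed for the gene, chr10:75943024-75949657, and the Ms4a2 stretch overlaps the end of its span, chr19:11615517-11623790, so both genes have a further start upstream of the one used.
Cd79a: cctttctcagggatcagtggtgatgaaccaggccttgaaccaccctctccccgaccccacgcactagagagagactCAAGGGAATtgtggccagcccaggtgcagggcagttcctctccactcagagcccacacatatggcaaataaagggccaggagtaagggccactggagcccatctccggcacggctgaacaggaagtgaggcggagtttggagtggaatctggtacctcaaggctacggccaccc
Vpreb3: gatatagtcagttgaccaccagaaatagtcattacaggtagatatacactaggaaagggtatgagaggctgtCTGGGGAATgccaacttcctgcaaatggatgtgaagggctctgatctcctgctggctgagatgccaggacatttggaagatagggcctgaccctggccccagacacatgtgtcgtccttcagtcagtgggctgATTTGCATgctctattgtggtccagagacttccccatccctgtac
Ms4a2: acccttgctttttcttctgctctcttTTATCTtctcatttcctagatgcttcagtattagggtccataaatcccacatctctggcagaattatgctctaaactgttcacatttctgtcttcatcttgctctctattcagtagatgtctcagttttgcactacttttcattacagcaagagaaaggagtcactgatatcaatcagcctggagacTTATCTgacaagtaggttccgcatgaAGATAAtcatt
The motifs were ATTCCCNNG for Ebf1, ATTTGCAT for the octamer proteins and AGATAA for GATA factors, each searched on both strands, with none overlapping another in these promoters. The motifs were chosen after the sequences had been seen. Cd79a holds the first of them 174 bases before the start. Vpreb3 holds one 178 bases before the start and the octamer 45 bases before it. Ms4a2 holds 3 GATA matches, 224, 37 and 11 bases before the start. Of 32851 promoters of that length, 2.79% held the Ebf1 letters, 1.6% the octamer and 9.99% the GATA letters. Counted by gene, with any of its promoters, the shares were 3.26%, 1.81% and 11.4% of 27025 genes. The Ebf1 letters were in 3 of 6 mature B cell markers with a promoter in the table (Cd79a, Ebf1, Fcer2a), 3 of 21 B lineage transcription factors, 1 of 13 receptor and coreceptor genes, 1 of 11 pre-B genes, 1 of the 6 matched genes among the 12 with the largest rise, and 1 of 9 mast cell and basophil genes. The octamer was in 2 of the 13 receptor genes and 1 of the 11 pre-B genes, and in none of the matched genes of the other groups. The GATA letters were in 5 of the 9 mast cell and basophil genes (Cd200r3, Cpa3, Fcer1a, Ms4a2, Prss34), 3 of the 9 matched genes among the 12 with the largest fall, 2 of the 11 pre-B genes and 1 of the 13 receptor genes. A match is a description of the letters and no evidence of binding.

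In the input RNA, 2288 genes were higher and 2278 lower in B_cell than in CLP among 17165 tested with limma at an adjusted p below 0.05 (26.6% of genes called, 13.3% higher and 13.3% lower). The median difference over all genes was 0.04 on the log2(value + 1) scale used throughout. That scale understates changes of genes near 0. Of the called genes, 1569 higher and 1691 lower had a mean of at least 50 over the 4 libraries. The median standard error of a gene's difference was 0.545. A fit on the 4 libraries alone, which has far fewer degrees of freedom, called 323 higher and 318 lower, and leaving out CLP replicate 1 gave 1259 and 1346. With TMM scaling the calls were 1903 higher and 2692 lower, so that 41.4% of called genes were higher against 50.1% with the deposited scaling.

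The genes named next were ranked among called genes whose libraries did not overlap between groups and whose mean reached 50, leaving out receptor segments and Gm and Rik models. Several kappa V segments had larger differences. The largest rise in that ranking was that of Cd79a, the signalling chain of the B cell receptor (chr7:24897497-24901858), with values of 345050 and 521270 in B_cell and 1079 and 865 in CLP. The groups lay far apart, with a log2 difference of 8.78 (SE 0.66, adjusted p = 1.86e-09). Its partner Cd79b (chr11:106311341-106314562) was at 192690 and 277080 against 1693 and 1646, a difference of 7.11 (SE 0.34, adjusted p = 1.11e-12). The other genes among the 12 with the largest rise were Fcmr, the Fc receptor for IgM (8.08), Ms4a1, which encodes CD20 (7.95), Myo1e, a membrane-linked myosin (7.74), the lambda constant genes Iglc2 (7.69) and Iglc1 (7.28), Pax5 (7.28), Klhl14 (7.24), Agbl1 (7.21), Gh (7.13) and Edaradd, a death domain adaptor (7.05). Klhl14, Agbl1 and Gh were read at 1.31 to 3.94 in CLP replicate 1 and at 0 in replicate 2, against 185 to 350 in B_cell. Gh, growth hormone, was at 185.0 and 243.4 in B_cell, the highest mean of the 16 types, and Agbl1 was highest there too. Iglc1 lost its call without B_cell replicate 2 (adjusted p = 0.068) or without CLP replicate 2 (adjusted p = 0.15), and its CLP values were 2275.5 and 125.6. The DESeq2 alternative did not call Klhl14 (adjusted p = 0.12) or Gh (adjusted p = 0.051). All 12 genes were also higher than in T cells in the same fit.

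Among the 12 genes with the largest fall, the 3 most abundant in CLP were basophil or mast cell genes. Prss34 (chr17:25298394-25300168), a basophil protease, was at 314 and 827 in B_cell and 297200 and 66458 in CLP, a difference of -8.10 (SE 1.13, adjusted p = 3.38e-05). Mcpt8 (chr14:56082163-56085499), another basophil protease, was at 139 and 358 against 73213 and 23142 (difference -7.52, adjusted p = 1.51e-07), and Cpa3, a carboxypeptidase of mast cells and basophils, was at 14.6 and 17.7 against 6757 and 2270. Fut7, a fucosyltransferase needed for selectin ligands, was at 12.2 and 0 against 1295 and 1136. Kcne3, Fkbp1b, Alox15 and Treml4 had no read in either B_cell library. Set against a floor of 3 reads over the 2 libraries, Kcne3 (388 and 276 in CLP) was at least 89.2-fold lower, Fkbp1b (198 and 265) at least 62.2-fold lower and Treml4 (173 and 111) at least 38.2-fold lower. Alox15 was at 479 and 66.4 in CLP, and its bound of at least 73.2-fold lower was 17.8-fold without CLP replicate 1 and 128-fold without CLP replicate 2. The differences of Upk1b, Cd300lb and Csrp3 were -7.37, -7.08 and -7.01. Of these 12, Fut7, Fkbp1b, Cpa3, Treml4 and Cd300lb were also below T cells, while for Prss34 and Mcpt8 the difference from T cells was -1.53 and -1.57 and was not called (adjusted p = 0.258 and 0.0652).

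**Figure D2:**
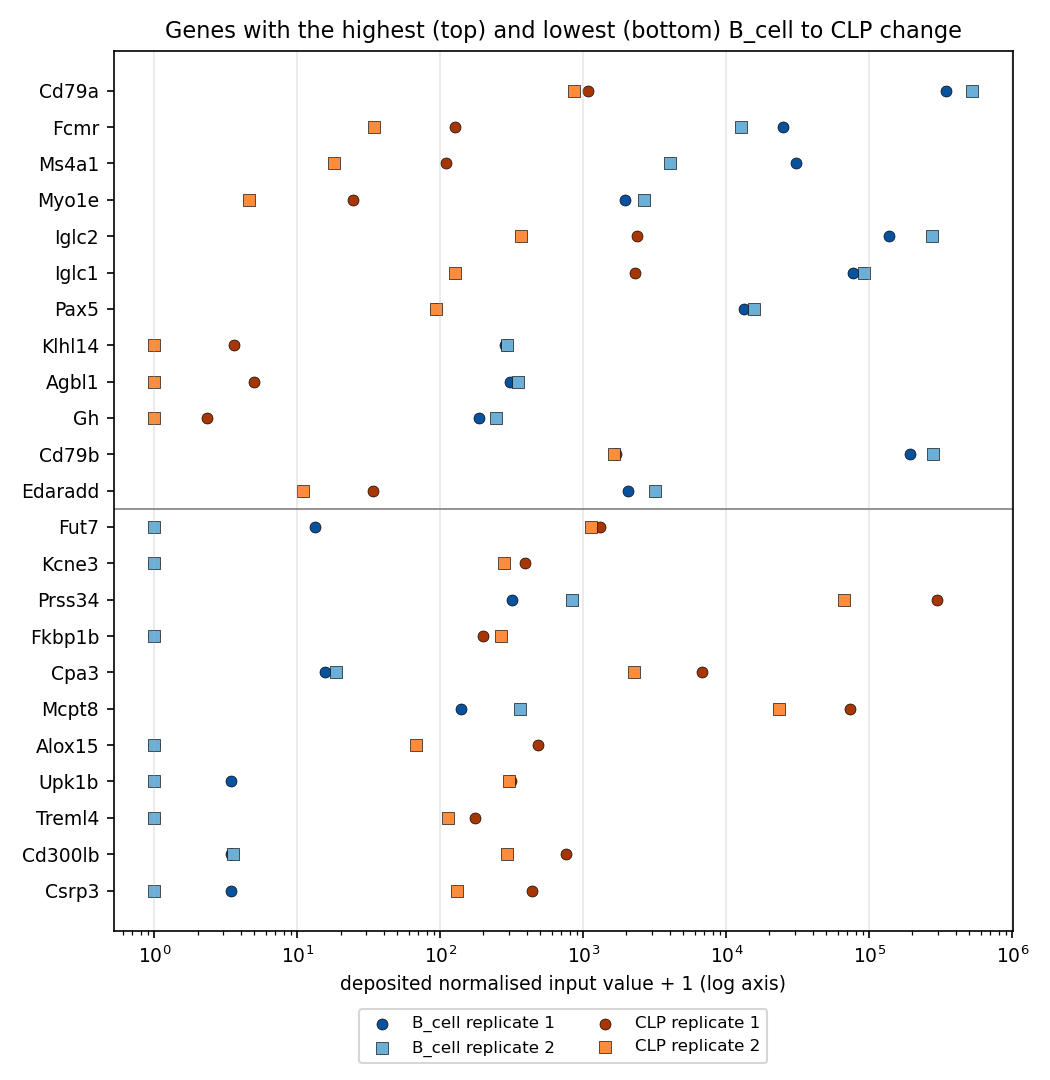
Deposited normalised input value plus 1 (horizontal log axis) of the 12 genes with the largest rise (top) and 11 of the 12 with the largest fall (bottom) between CLP and B_cell, 1 point per library. Cd79a is at 345050 and 521270 in B_cell and 1079 and 865 in CLP, and Kcne3 is at 0 in both B_cell libraries and at 388 and 276 in CLP.

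Of 21 B cell receptor and coreceptor genes, 14 rose and 1 fell, against 13.3% in each direction among all genes, and the list's median difference was 1.83. Cr2, the complement receptor of mature B cells, was at 436 and 340 against 10.5 and 14.3. Bank1, a scaffold of receptor signalling, was at 9799 and 4034 against 131 and 42.2. The kinase Syk rose by 1.70, and protein kinase C beta (Prkcb) by 2.27. Ighd, the delta heavy chain of mature naive cells, was at 14996 and 9666 against 340 and 304. Ifitm1 fell by 3.47. Plcg2, Vav1, Dapp1, Pik3ap1 and Blk were among the genes that did not pass the test, with Plcg2 at 621 and 669 against 631 and 554. Against T cells, 17 of the 21 genes were higher and 0 lower, Blk, Plcg2 and Pik3ap1 among the higher (differences of 6.53, 4.26 and 3.76). Without CLP replicate 2 the count of risen genes was 9, and the 4-library fit gave 7.

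Ighm was the least stable of them. Its values of 649860 and 31185 in B_cell overlapped those of CLP, 41904 and 23230, and its difference of 2.19 (SE 0.79, adjusted p = 0.0438) was -0.0007 without B_cell replicate 1. It also lost its call without CLP replicate 1 (adjusted p = 0.07545) or CLP replicate 2 (adjusted p = 0.2124), with TMM scaling (2.03, adjusted p = 0.06495), with no filter (adjusted p = 0.0628) and with the replicate block (adjusted p = 0.05047). In the IP libraries the B_cell counts of 55507 and 97680 lay above the CLP counts of 13605 and 16840. Blnk, the adaptor downstream of Syk, was at 16997 and 2399 against 2038 and 1893, and its difference went from 1.70 to 0.29 (adjusted p = 0.7) without B_cell replicate 1. It was not called without either CLP library (adjusted p of 0.08978 and 0.092). Igkc, the kappa constant gene, was at 580400 and 1171800 against 62050 and 39298 (4.06, SE 1.33, adjusted p = 0.031), and it lost its call without any 1 of the 4 libraries (adjusted p of 0.057 to 0.16).

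Light chain segments showed the same side more evenly than heavy chain segments. Of 109 kappa V segments tested, 90 rose and 0 fell, and the summed value was 137700 and 227700 in B_cell against 18530 and 14430 in CLP. All 5 kappa J segments, all 3 lambda V segments and all 3 lambda J segments tested rose. Of 109 heavy chain V segments, 34 rose and 0 fell, and their sum was 39180 and 3869 in B_cell against 8880 and 5550 in CLP, so that B_cell replicate 2 lay below both CLP libraries. Of 4 heavy chain J segments tested, 0 rose and 1 fell, with sums of 898.1 and 96.35 in B_cell against 612.8 and 226.9 in CLP. Segments of a family share sequence, and their single values are uncertain because the rule for dividing shared reads is unknown here. Of 164 T cell receptor segments tested, 1 rose and 3 fell.

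Genes of the pre-B cell receptor and of early B cells were higher in the B_cell libraries as well: 10 of 14 rose and 1 fell, with a median of 2.31. Vpreb3, a chaperone of the receptor, was at 64340 and 136570 against 950 and 955 (6.62, SE 0.80, adjusted p = 1.18e-06). The surrogate light chain gene Vpreb1 was at 5481 and 17130 against 945 and 1131, and its partner Igll1 at 6487 and 17404 against 1240 and 1476 (2.97, adjusted p = 0.00286). Igll1 lost its call without B_cell replicate 2 (2.26, adjusted p = 0.07). Rag1, the recombinase, was at 277 and 626 against 32.8 and 30.5. Cd24a rose by 3.70, and Akap12, a kinase anchor, by 5.19. Dntt fell, from 4177 and 5744 in CLP to 1015 and 383 (difference -2.97, adjusted p = 9.18e-05). Vpreb1, Vpreb3, Igll1 and Rag1 had their highest mean of the 16 types in B_cell, as did Cr2, Fcer2a and Ighd, genes of mature B cells. Rag2, Arpp21 and Cnn3 did not pass the test. The 4-library fit called 3 of the 14 higher.

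Of 23 B lineage transcription factors 16 rose and 1 fell, with a median of 2.40. Pax5, which holds the B fate, was at 13187 and 15632 against 91.9 and 91.5 (7.28, SE 1.30, adjusted p = 0.0002). Ebf1, which acts before it, was at 24508 and 7766 against 202 and 298, a difference of 5.81. Bach2, a repressor of plasma cell fate, was at 20893 and 37929 against 286 and 459 (6.28), and Ikzf3, which encodes Aiolos, at 1198 and 1826 against 26.2 and 11.7 (6.32). The octamer coactivator Pou2af1 rose by 5.31, its partner Pou2f2 by 2.40, Foxo1 by 2.71, Foxp1 by 2.78, Klf2 by 3.06 and Lef1 by 3.28. Irf8, also a factor of dendritic and monocyte fates, fell from 82157 and 76866 to 35344 and 12381 (-1.93, adjusted p = 0.00363), and lost its call without B_cell replicate 2 (-1.17, adjusted p = 0.12). In all 16 types its mean was highest in CLP and second highest in B_cell. Spi1, Ikzf1, Bcl11a, Mef2c, Spib and Bcl6 did not pass the test, and of these Spi1, Bcl11a, Mef2c and Spib were higher than in T cells (3.44, 4.21, 5.06 and 5.79). Without CLP replicate 1 the count of risen factors was 10. Against T cells Foxo1, Klf2 and Ikzf3 did not pass the test (0.45, 0.15 and 1.33), and Lef1 was lower (-1.72, adjusted p = 0.00076).

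Receptors of mature B cells rose in 12 of 17 cases tested, with 1 lower and a median of 2.60. Ms4a1 was at 30420 and 4006 against 109 and 17.0, and Fcmr at 24761 and 12716 against 125 and 33.2. Tnfrsf13c, the receptor for the survival factor BAFF, was at 20231 and 7125 against 549 and 575 (4.42, SE 0.47, adjusted p = 1.51e-07). Cd40, which receives T cell help, rose by 3.24, the low-affinity IgE receptor Fcer2a by 5.33, and Cd55, which restrains complement, by 5.73. Ltb, a cytokine for lymphoid tissue, was at 39472 and 34301 against 554 and 265 (6.58), but did not differ from T cells by the test (0.20, adjusted p = 0.71). Cd86, Cd200, Il4ra and Il21r did not pass the test. The 1 lower gene, Tnfrsf1b, went from 249 and 83.4 to 75.5 and 65.9 (adjusted p = 0.045) and lost its call without B_cell replicate 1, B_cell replicate 2 or CLP replicate 1 (adjusted p of 0.075, 0.17 and 0.75).

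Among 13 inhibitory receptors and phosphatases, 8 rose and 2 fell. Siglecg was at 50445 and 57445 against 1745 and 1918 (4.88, SE 0.34, adjusted p = 3.3e-10), Cd72 at 60375 and 25277 against 1455 and 2078 (4.49), and Cd22 at 976 and 1138 against 219 and 109 (2.76). All 3 carry motifs that recruit phosphatases to the receptor. Fcrl1, Fcrla and Cd37 rose by 3.59, 3.56 and 3.22. Lair1, a collagen receptor of many leukocytes, fell from 4105 and 3551 to 416 and 317 (-3.39). Pirb fell by 2.17, and lost its call without CLP replicate 1 (-1.47, adjusted p = 0.06). Without B_cell replicate 1 the count of lower genes was 4. The phosphatase Ptpn6 was at 23060 and 1785 in B_cell, on both sides of the CLP values of 8404 and 4782.

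MHC class II genes rose in 8 of 12 cases and none fell, with a median of 2.52. The invariant chain Cd74 was at 645700 and 819650 against 41492 and 16164 (4.81, SE 0.57, adjusted p = 7.7e-07), H2-Aa at 112860 and 169970 against 15477 and 7022, and H2-DMb2, a chain of the peptide loader, at 26996 and 13286 against 833 and 653. H2-Oa and H2-Ob, the inhibitor of that loader in B cells, rose by 2.45 and 2.60. H2-DMa, H2-DMb1, Ctss and Ifi30 did not pass the test, with H2-DMa at 10595 and 8083 against 10388 and 10334. All 12 genes were higher than in T cells.

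**Figure D3:**
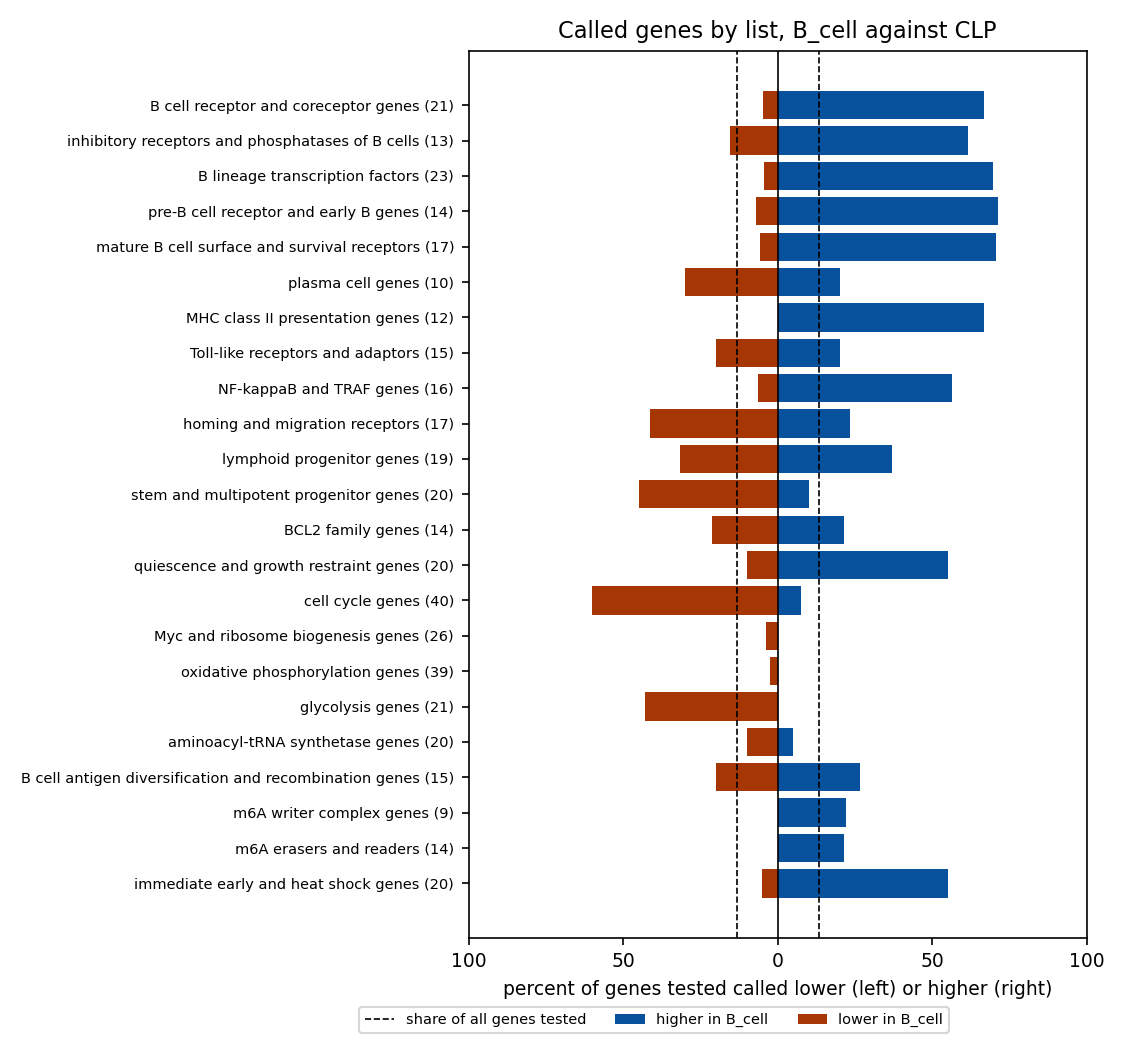
Percent of the tested genes of each list called higher (right, blue) or lower (left, dark orange) in B_cell than in CLP, with the number tested in brackets and dashed lines at 13.3%, the share of all genes in each direction. The lists of B cell receptor, transcription factor, pre-B and surface receptor genes have most of their genes on the right, and the cell cycle list, with 24 of 40 lower, has the longest bar on the left among the lists drawn.

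The 4-library fit called fewer genes in each list named here. The counts of risen genes in it were 4 for inhibitory receptors, 6 for mature surface receptors, 4 for MHC class II, 1 for NF-kappaB and TRAF, 3 for quiescence and 2 for immediate early genes, and 1 glycolysis gene was lower.

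NF-kappaB and TRAF genes rose in 9 of 16 cases and 1 fell, with a median of 1.29. Rel rose by 1.84, Relb by 2.10, the inhibitor Nfkbia, itself a target of the pathway, by 3.37, and Traf3 and Traf5, adaptors of TNF family receptors, by 2.34 and 2.22. Nfkb1 fell from 1933 and 1480 to 682 and 520 (-1.51, adjusted p = 0.000736). Against T cells 3 of the 16 were higher (Rel, Nfkbia and Nfkbid) and 3 lower. Toll-like receptors and their adaptors were split, with 3 of 15 higher and 3 lower, shares of the same order as among all genes, and 1 was higher without CLP replicate 2. Traf6 rose by 1.43 and Myd88 fell by 2.04. Tlr9, which senses DNA, was at 43.8 and 35.5 against 47.2 and 38.6.

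Homing receptors went both ways, 4 of 17 higher and 7 lower, beside 13.3% of all genes in each direction. The follicle receptor Cxcr5 was at 377 and 160 against 10.5 and 4.48 (4.96), Ccr6 at 501 and 380 against 63.0 and 16.1 (3.72), and S1pr1, the receptor for exit from lymphoid tissue, at 660 and 576 against 84.0 and 21.5 (3.82). Lower were Selplg, the P-selectin ligand (-3.41, from 35796 and 22913 to 4554 and 1582), the gut integrin chain Itgb7 (-2.92), Ccr9 (-2.55) and Cd44 (-1.48). Against T cells 12 of the 17 genes were lower and 1 higher, Cxcr4.

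Lymphoid progenitor genes were divided, 7 of 19 higher and 6 lower, beside 13.3% of all genes in each direction. Flt3 fell from 1231 and 675 to 24.3 and 78.6 (-4.35, SE 0.54, adjusted p = 1.62e-06), Cd34 from 1072 and 1014 to 156 and 145 (-2.79), and Runx2 from 1786 and 2709 to 141 and 233 (-3.59). Il7r, the receptor for the B cell growth factor of the marrow, rose from 1160 and 1711 to 4316 and 6790 (1.94), and Tcf12, which pairs with E2A, rose by 2.61. Ly6d was at 213320 and 453150 in B_cell and 64820 and 85470 in CLP. Its difference of 2.06 (SE 1.24) did not pass the test (adjusted p = 0.241). Its groups did not overlap, which was so for 57.3% of all genes tested. Of 20 stem and multipotent progenitor genes 9 fell and 2 rose, and none rose without B_cell replicate 2, CLP replicate 1 or CLP replicate 2. Hoxa9 went from 150 and 139 to 12.2 and 15.2 (-3.31), Hoxa7 fell by 2.84, Meis1 by 1.78, and Gata2 from 272 and 58.3 to 4.87 and 5.07 (-4.41). Gata2 is also a gene of mast cells and basophils.

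Dendritic cell and monocyte genes fell in 9 of 12 and 10 of 14 cases. Cd209a went from 10593 and 4678 to 221 and 86.2 (-5.66), Siglech from 19213 and 14746 to 2025 and 3291 (-2.70), and Clec9a, a receptor of cross-presenting dendritic cells, from 297 and 246 to 12.2 and 5.07 (-4.92). F13a1 went from 2920 and 2278 to 38.9 and 60.9 (-5.70), Ms4a6c from 18148 and 19372 to 282 and 555 (-5.56), and the lysozyme gene Lyz2 from 258990 and 53953 to 3442 and 2667 (-5.29). The neutrophil list had 1 of 12 genes lower in B_cell, 5 without CLP replicate 2, 0 without CLP replicate 1 or either B_cell library, 3 with edgeR and 4 with DESeq2, and its sum was 53110 and 13300 in CLP against 16150 and 10130 in B_cell. The 18 T cell markers had 3 lower and 0 higher, near the 13.3% share of all genes, with a summed value of 2130 and 2594 in B_cell and 3875 and 3405 in CLP. Their count of lower genes was 1 without either CLP library or with no filter, 2 without either B_cell library, and 5 to 7 with TMM, the replicate block, edgeR, DESeq2 or a pseudocount of 10.

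**Figure D4:**
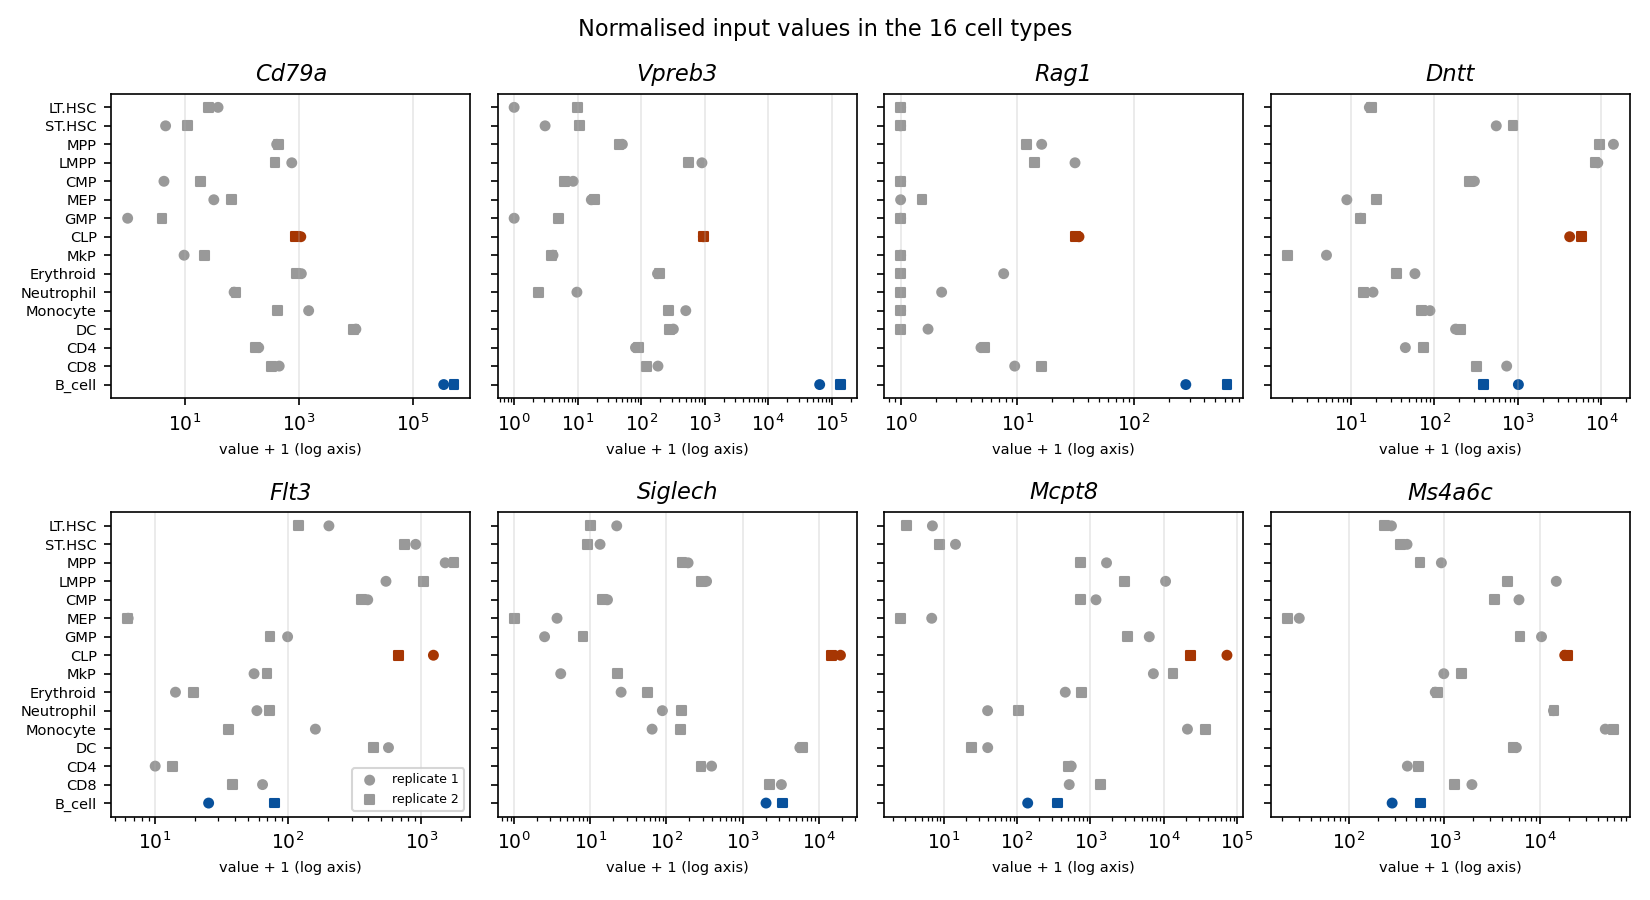
Normalised input value plus 1 (horizontal log axes) of 8 genes in the 16 cell types, circles for replicate 1 and squares for replicate 2, blue for B_cell, dark orange for CLP and grey for the rest. Cd79a, Vpreb3 and Rag1 are highest in B_cell, Siglech is highest in CLP, Mcpt8 has its highest mean there with replicates that overlap those of Monocyte, and Dntt is highest in MPP, Flt3 in MPP and Ms4a6c in Monocyte. Deposited library totals were larger in Monocyte than in CLP.

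Of 40 cell cycle genes 24 fell and 3 rose, with a median of -1.13. The mitotic kinase Aurkb went from 1828 and 1616 to 480 and 137 (-2.74, SE 0.35, adjusted p = 2.39e-06), Ccnb1 from 3412 and 2646 to 869 and 259 (-2.66), Plk1 from 1240 and 1199 to 569.6 and 93.8 (-2.39), and the replication licensing genes Cdc6 and Mcm6 had differences of -2.51 and -2.57. Ccnd1 fell by 2.80. Cdc45 rose, from 1174 and 2170 to 14847 and 11707 (3.04), and so did E2f2 (2.04) and Cdc25b (0.99, adjusted p = 0.0471). Cdc25b lost its call without B_cell replicate 1, CLP replicate 1 or CLP replicate 2 (adjusted p of 0.27, 0.12 and 0.18). Mki67 was at 1095 and 1204 against 1530 and 2576 and did not pass the test (-0.79, adjusted p = 0.106). Against T cells the list went the other way: 23 of the 40 genes were higher in B_cell and 2 lower, with Ccnb2 at 2.97, Cdk1 at 2.24 and Top2a at 2.02. Without B_cell replicate 2, which was the lower of the B_cell libraries for Aurkb, Ccnb1 and Plk1, the count below CLP was 15, and the 4-library fit called 0 genes lower.

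Quiescence and growth restraint genes rose in 11 of 20 cases and fell in 2. Klf2, Foxo1, Foxp1 and S1pr1, given above as risen members of other lists, are counted in this list too. Btg1, an antiproliferative gene, was at 19083 and 7176 against 743 and 733 (3.99), and Btg2 at 7363 and 13978 against 2132 and 1949 (2.31). Pik3ip1, an inhibitor of PI3 kinase, rose by 1.09, and Klf4 fell by 3.02. With TMM scaling the count higher was 7, and with edgeR on recovered reads it was 7. Immediate early and heat shock genes, which respond to handling of cells as well as to signals, rose in 11 of 20 cases and 1 fell. Jun was at 15614 and 2855 against 517 and 444 (3.80), Zfp36 at 3218 and 1567 against 487 and 350 (2.44), and Jund at 170 and 172 against 9.19 and 17.9 (3.63). Fosl2 fell by 3.67. Against T cells none of this list was higher and 6 were lower, and without CLP replicate 1 the count of risen genes was 7.

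Glycolysis genes fell in 9 of 21 cases and none rose, with a median of -1.06. The hexokinases Hk2 and Hk3 fell by 2.18 and 4.86, Pfkp by 2.11, Ldhb from 1072 and 1030 to 146 and 289 (-2.35), and the lactate exporter Slc16a3 by 3.99. Hk3 is also known as a myeloid hexokinase. Without B_cell replicate 2 the count lower was 5, and without CLP replicate 1 it was 6. Of 39 oxidative phosphorylation genes 1 fell and 0 rose, of 26 Myc and ribosome biogenesis genes 1 fell and 0 rose, and of 20 aminoacyl-tRNA synthetase genes 1 rose and 2 fell. The 1 lower gene of the Myc list was Myc itself, at 226 and 68.5 against 310 and 243 (-1.13, SE 0.42, adjusted p = 0.0453). It lost its call without B_cell replicate 2 (-0.28, adjusted p = 0.7), without CLP replicate 1 (adjusted p = 0.24) and without CLP replicate 2 (adjusted p = 0.077). The oxidative phosphorylation call, Ndufv1, was lost without B_cell replicate 2 (-0.24, adjusted p = 0.64) or either CLP replicate (adjusted p of 0.12 and 0.063). Without B_cell replicate 1 the oxidative phosphorylation list had 5 lower genes and the Myc list 4. The synthetase list had 9 lower genes without B_cell replicate 1 and 0 without B_cell replicate 2 or CLP replicate 1.

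Smaller lists were mixed, and their counts stand beside 13.3% of all genes called in each direction. Of 15 recombination and diversification genes 4 rose and 3 fell (1 fell without B_cell replicate 2 or CLP replicate 1), with Xrcc5, which encodes Ku80, at 114 and 142 against 27.6 and 12.6 (2.71). Of 10 plasma cell genes 2 rose and 3 fell. Without CLP replicate 1 none fell, and without B_cell replicate 2 1 rose and 1 fell. Slamf7 rose by 3.52, and Prdm1, the driver of plasma cell fate, was at 17.0 and 10.1 against 3.94 and 2.69 without a call. Jchain, the joining chain of secreted IgM, fell from 6454 and 3405 to 438 and 451 (-3.40, adjusted p = 0.00536), a call lost without CLP replicate 1 (-2.93, adjusted p = 0.062). Sdc1 lost its call without B_cell replicate 2 (-2.02, adjusted p = 0.05352) or CLP replicate 1 (-1.98, adjusted p = 0.07258), and Xbp1 without B_cell replicate 2 (-0.11, adjusted p = 0.8932) or CLP replicate 1 (-0.99, adjusted p = 0.3047). Of 14 BCL2 family genes tested 3 rose and 3 fell, but 1 rose without B_cell replicate 1, and 1 fell without either CLP library, with edgeR or with DESeq2. The survival gene Mcl1 was at 1716 and 1501 against 489 and 561 (1.61) and the death gene Bid was at 511 and 88.7 against 1555 and 1352 (-2.76).

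Among genes of the m6A machinery, 2 of 9 writer genes and 3 of 14 eraser and reader genes were higher and none lower, beside 13.3% of all genes in each direction. Mettl3, the catalytic writer, was at 1385 and 479 in B_cell and 542 and 732 in CLP, so the groups overlapped (0.37, SE 0.47, adjusted p = 0.604). Mettl14 was at 200 and 287 against 175 and 193. Wtap, the scaffold of the complex, was at 10050 and 4460 against 2422 and 2991 (1.31, adjusted p = 0.0388), and Zc3h13 at 1049 and 2277 against 669 and 813 (1.07, adjusted p = 0.0183). Of the readers, Ythdc1, the nuclear one, was at 1507 and 2262 against 550 and 786 (1.49, adjusted p = 0.0022), Hnrnpa2b1 rose by 1.67 (adjusted p = 0.0111) and Ythdc2 by 1.09 (adjusted p = 0.0433). Igf2bp2 was low in both, at 19.5 and 33.0 against 5.25 and 9.87 (1.68, SE 0.64, adjusted p = 0.055). None of these 5 calls held without CLP replicate 1: Wtap was at 1.16 (adjusted p = 0.2), Zc3h13 at 0.93 (0.14), Ythdc1 at 1.23 (0.05), Ythdc2 at 0.95 (0.21) and Hnrnpa2b1 at 1.55 (0.085), in brackets the adjusted p. Wtap fell to 0.73 without B_cell replicate 1, and Zc3h13 to 0.51 without B_cell replicate 2. With all libraries kept, Wtap and Ythdc2 also lost their calls in limma with TMM scaling (adjusted p of 0.0752 and 0.08845) or no filter (0.06375 and 0.07127). The same held with edgeR (0.05963 and 0.106).

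The same fit placed B_cell against the mean of CD4 and CD8 T cells, which tests whether the change from CLP differed between the B and T lineages. There 2590 genes were higher and 2840 lower in B_cell (31.6% of 17165 genes, 15.1% higher and 16.5% lower). The comparisons share the B_cell libraries. Of the 2288 genes above CLP, 1178 were also above T cells, 1014 were not called and 96 were below T cells. Of the 2278 genes below CLP, 1074 were also below T cells, 1037 were not called and 167 were above them. By list, 10 of 10 mature B cell markers, 14 of the 14 risen receptor and coreceptor genes and 9 of the 10 risen pre-B genes were above T cells too, against 0 of the 11 risen immediate early genes and 3 of the 9 risen NF-kappaB and TRAF genes.

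For each gene, m6A enrichment meant the log2 value in the IP less that in the input, and the difference of that quantity between B_cell and CLP was tested in 1 limma fit over both tables, each scaled on its own by TMM. A change shared by all genes is removed by that scaling. Of 16753 genes, 0 were higher (0%) and 2 were lower in B_cell (0.0119%), with 1173 at an unadjusted p below 0.05, 415 of them higher and 758 lower. The median standard error of a difference was 1.07, against 0.545 for expression, so that only large differences could be called. edgeR's quasi-likelihood test of the same interaction on counts called 0 higher and 1 lower.

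Set (chr2:30061996-30072577), a histone chaperone and inhibitor of protein phosphatase 2A, had scaled input values of 31108 and 48174 in B_cell and 5761 and 8871 in CLP, while its scaled IP values were 7850 and 5665 against 8493 and 8564. The input was thus several-fold higher in B_cell and the IP was not, an enrichment of -2.54 in B_cell and 0.25 in CLP (difference -2.79, SE 0.48, adjusted p = 0.0159). Gng5 (chr3:146499836-146505543), a gamma subunit of G proteins, had scaled input values of 14045 and 20630 against 6076 and 7943 and scaled IP values of 15900 and 8978 against 32829 and 26892 (difference -2.61, SE 0.48, adjusted p = 0.0272). For both genes, every IP value less every input value was lower in B_cell than in CLP. Set lost its call without input B_cell replicate 2 (-2.48, adjusted p = 0.0999), input CLP replicate 1 (-2.48, 0.421) or IP B_cell replicate 2 (-2.56, 0.112), and Gng5 without those (-2.33, -2.41 and -2.19, with adjusted p of 0.135, 0.421 and 0.417), without input CLP replicate 2 (adjusted p = 0.0623) or without IP CLP replicate 1 (adjusted p = 0.0636). With the replicate number as a block the adjusted p was 0.13 for Set and 0.188 for Gng5.

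Further genes with low p that missed the threshold, chosen after their values were seen, were Ptprcap, a partner of the phosphatase CD45 (-2.39, adjusted p = 0.0893), the histone gene H3f3a (-2.30, adjusted p = 0.12), the chaperone Hsp90ab1 (-1.89, adjusted p = 0.129), and Cd79b (-2.97, adjusted p = 0.144). Cd79b had scaled input values of 179310 and 250180 in B_cell against 1742 and 1665 in CLP and scaled IP values of 31604 and 24033 against 1898 and 1586, so it was higher in both tables, by 6.96 in the input and 3.99 in the IP. Cd79a differed by 8.62 in the input and 5.33 in the IP, Cd74 by 4.66 and 2.08, and Ighm by 2.04 and 2.09. Enrichment differences of Mettl3 (-0.75, adjusted p = 0.969), Igf2bp2 (-1.88, adjusted p = 0.819) and Myc (0.48, adjusted p = 0.994) were not called.

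Most genes called in the input had the same direction in the IP. Of 2250 genes higher in the B_cell input and tested in both tables, 2055 were also higher in the IP, with a median of 2.12 in the input and 1.26 in the IP. Of 2270 lower genes, 2114 were lower in the IP, with medians of -2.23 and -1.52. The correlation of the 2 differences over 16753 genes was 0.726, with standard deviations of 1.70 in the input and 1.61 in the IP. The genes were chosen on the input, which also enters the enrichment, so that the smaller IP medians and the 1797 of 2250 higher genes with an enrichment difference below 0 are descriptions only.

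**Figure D5:**
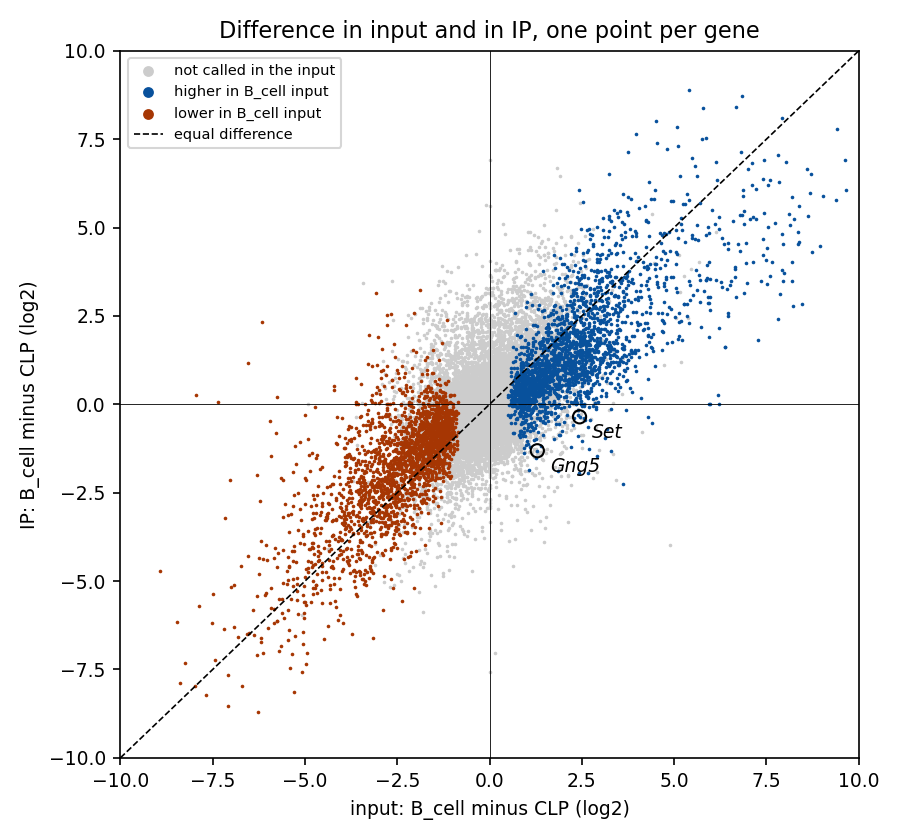
Difference between B_cell and CLP in the IP (vertical axis, log2) against that in the input (horizontal axis, log2), 1 point per gene, blue for genes higher, dark orange for genes lower and grey for genes not called in the B_cell input. The correlation is 0.726, and Set and Gng5, circled, have an input difference of 2.44 and 1.29 and an IP difference of -0.35 and -1.31.

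By list, the median enrichment difference was furthest from that of all genes (0.04) for MHC class II genes, at -1.27 with 10 of 12 genes below 0, and for oxidative phosphorylation genes, at -1.21 with 33 of 39 below 0. For the latter the input differed by a median of -0.005 and the IP by -1.22. These genes took 1.34% and 0.827% of IP counts in B_cell and 1.77% and 1.73% in CLP. B_cell replicate 2 was the lowest of the 4. Their share of the input was 0.989% and 1.13% in B_cell against 1.37% and 1.65% in CLP. Unlike the scaled input median, the input share was thus also lower in B_cell. No gene of either list passed the test. Of the 12 MHC class II genes, 8 were called higher in the input, which enters the enrichment. Among all genes called higher in the input, 1797 of 2250 had an enrichment difference below 0, so the MHC class II count is not particular to that list. The B cell receptor list had a median of -0.003, with 11 of 21 below 0, the B lineage transcription factors -0.21 with 16 of 23 below 0, and the cell cycle genes 0.20 with 14 of 40 below 0.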

How the data were processed

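RNA levels and anti-m6A precipitated RNA were measured by sequencing. The submitters' processing notes name kallisto, Trimmomatic, fastp and GRCm38, with no version or role. The deposited input values are a normalised signal per gene and the deposited IP values are raw counts. Each input library's values (100%) were whole reads, within 0.1 of a read, once divided by that library's smallest step, and reads were recovered for all but the second GMP library, which was left out of those tests.

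The input test was limma (version 3.58.1, R 4.3.3) with trend and robust moderation, on log2(value + 1) of 32 libraries, for genes at 10 or more in at least 2 libraries. Enrichment was tested over 64 libraries with TMM factors within each table. Contrasts were two-sided, adjusted by Benjamini-Hochberg, with a threshold of 0.05. edgeR 4.0.16 and DESeq2 1.42.0 on recovered reads, other pseudocounts, filters and scalings, a replicate block and leaving out each library were alternatives. Leaving out the Monocyte libraries was added after seeing the data. The fits were tested on simulated data in which 67, 67 and 66 genes changed 2-, 4- and 8-fold. For expression 17.9%, 94% and 97% of them were recovered, with 91 false calls among 17348 genes. For enrichment the shares were 7.46%, 64.2% and 97%, with 34 false calls among 16883 genes. False calls thus made up a larger share of the calls than the 0.05 threshold. The simulated spread was a set value, not that of these libraries. Genes named first are the 12 highest and 12 lowest differences among called genes whose groups do not overlap and whose mean reaches 50, without Gm and Rik models and receptor segments, then Mettl3, Igf2bp2, Myc and list members. Members and lists were chosen with earlier results of these data known. Lists are described by counts and medians, and a few of their genes are not reported here. A floor of 3 reads over a group bounds folds against 0 and covers counting error only. Promoters and coordinates are from RefSeq (GRCm38.p6).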

Additional observations from a re-analysis of the deposited data

How the results depend on the processing

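The expression counts of 2288 higher and 2278 lower genes stayed within 1.5 times under another pseudocount, no filter, TMM scaling (1903 and 2692), edgeR (1617 and 2254), DESeq2 (2475 and 2078), the replicate block (2336 and 2322) and without the Monocyte libraries (2664 and 2455). The fit on the cell types compared alone gave 323 and 318. Leaving out a library gave 1259 to 2067 higher and 1346 to 2520 lower, lowest without CLP replicate 1. Of 268 called genes followed, 73 kept the call in every setting and 157 in every setting but the 4-library fit; of the 24 with the largest changes, 18 and 21. Against T cells, the counts of 2590 and 2840 stayed within 1.5 times in every setting run.

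Enrichment counts of 0 higher and 2 lower became 9 and 21 with a pseudocount of 10, 9 higher with no filter, and 1 higher when scaled by totals, which shifted the median of all genes from 0.04 to 0.37. edgeR called 1 lower, and the cell types compared alone and the replicate block 0 lower. Leaving out a library gave 0 to 121 higher and 0 to 80 lower: 121 and 80 without input B_cell replicate 1, 1 higher without input B_cell replicate 2, 11 higher without IP CLP replicate 1, 45 lower without IP B_cell replicate 1 and 4 lower without IP CLP replicate 2. The cause was not tested.

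The labels do not say whether same-numbered libraries were paired. Their deviations correlated at 0.114 (inputs of B_cell and CLP), -0.0553 (input and IP of B_cell), 0.179 (input and IP of CLP) and 0.132 (IP of both). Over 120 pairs of input types the median was 0.00188, with 16 pairs over 0.1. These correlations cannot show whether the samples were paired. Differences that changed sign, none of them past the threshold there, were Ighm (-0.0007162) and Mettl3 (-0.3935) in expression and Mettl3 in enrichment (0.0327) without input B_cell replicate 1, and the enrichment of Myc without input B_cell replicate 2 (-0.3913) or IP CLP replicate 1 (-0.07203). Depth limits low genes: in B_cell 1 read is worth 2.43 and 2.54 in the deposited values. Leaving out a library moved Ighm from -0.0007162 to 4.38 and Mettl3 from -0.3935 to 1.136 in expression, and in enrichment Mettl3 from -1.54 to 0.0327 and Myc from -0.3913 to 1.361.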

Other observations

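Of 15 markers of natural killer and innate lymphoid cells, 4 were higher and 3 lower in B_cell, with 0 higher without CLP replicate 2 and 1 without B_cell replicate 2. Klrd1 was at 153 and 213 in B_cell and 1059 and 1244 in CLP (-2.66, adjusted p = 0.00245), and Klrk1 at 229 and 259 against 858 and 869 (-1.82, adjusted p = 0.00572), while Ncr1 was at 200 and 155 against 45.9 and 8.97 (3.03, adjusted p = 0.00814), a call lost without CLP replicate 2 (1.91, adjusted p = 0.16). Of 9 granulocyte monocyte progenitor genes 6 were lower and 1 higher, and 3 were lower without CLP replicate 1. The higher gene, the proteoglycan Srgn, was at 13664 and 11230 against 4037 and 3971 (1.63, adjusted p = 0.0361) and lost its call without any 1 of the 4 libraries. The granule protease Ctsg was at 426 and 413 in B_cell and 5334 and 5187 in CLP (-3.64), Prtn3 fell by 3.11, and the myeloid factor Cebpa was at 7.3 and 0 against 76.1 and 97.8. Of 13 erythroid genes 5 were lower and 0 higher, with 1 lower without either CLP library and 3 without either B_cell library. Gata1 was at 19.5 and 10.1 against 151 and 58.3 (-2.65, adjusted p = 4.59e-05). The counts of these lists stand beside 13.3% of all genes called in each direction.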
